A study of Homo sapiens with 6 samples.

Results

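The genes described here are 31 named targets and feedback partners of p53, taken as a list of symbols, of which 30 had at least 1 probe set whose annotation gave that symbol alone. These 30 genes had 72 of the 54675 probe sets on the array. Of them, 25 genes with 53 probe sets lay above a filter on dim probe sets and were tested among 13765 genes. Signals of FDXR are not analysed here. The genes were placed in groups by role from general knowledge, with earlier results of these data known.

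RNA came from RL cells, an established human B lymphoid line whose labelled genotype is t(14,18)+, the translocation found in most follicular lymphomas. Untreated cells were grown either in suspension and harvested during exponential growth, or as multicellular aggregates (MALC) harvested on day 10. Each culture form had 3 samples, numbered 1 to 3, with 1 Affymetrix U133 Plus 2.0 array each. All 6 samples come from 1 cell line, and the labels do not say that the samples of a group were separate cultures. The p-values below cover the variation among these arrays alone, part or all of it perhaps technical. Growth form and time in culture differ together and cannot be told apart.

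p53 is a transcription factor that is held at low levels by MDM2, a ubiquitin ligase, and by its relative MDM4, and is released by DNA damage and other stress. It binds a pair of similar decamers near its targets, which arrest the cell cycle, repair DNA, alter metabolism or promote cell death, while other targets, MDM2 among them, switch p53 off again. In B cells of germinal centres, from which follicular lymphoma derives, this response is normally held down.

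The sequences below show where the decamer to which p53 binds, known as the p53 half-site, occurred without mismatch in the RefSeq promoter windows of these genes (GRCh38.p14, 250 bases before to 50 bases after each start, both strands, since the pattern is its own reverse complement). They are shown because these genes were put on the list as p53 targets, and they let the letters be set beside the signals that follow. Capitals mark the half-sites, and the letters are written 5′ to 3′ on the gene's strand.
AEN: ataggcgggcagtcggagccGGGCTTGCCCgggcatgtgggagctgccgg
EI24: ccagcggccccgtgcggcccGGGCATGCCC
PLK2: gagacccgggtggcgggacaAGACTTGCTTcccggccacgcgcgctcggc
DDB2: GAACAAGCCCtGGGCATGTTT
The AEN stretch is chr15:88621286-88621335 on the plus strand, with its half-site 34 bases before the start, and the EI24 stretch is chr11:125569447-125569476 on the plus strand, with its half-site ending just before the start. That of PLK2 is chr5:58460189-58460238 on the minus strand, 132 bases before the start. The DDB2 stretch, chr11:47214979-47214999 on the plus strand, begins 5 bases after the start and holds 2 half-sites with 1 base between them. Among 28 listed genes with a promoter window in the table, 5 had a half-site in 1 window (FDXR is the fifth), and 13.2% of their 38 windows held one, against 6.6% of all 35116 windows. The listed windows were richer in the bases G and C, with a median of 67.3% against 58.7% in all windows. A full site, meaning 2 half-sites with at most 13 bases between them, was found in 10 of all windows (0.03%), of which the DDB2 window was 1. AEN and EI24 fell in MALC, DDB2 did not pass the test, and PLK2 lay below the filter. Of the 9 windows of 8 genes that fell, 2 held a half-site (22.2%), against 5.0% of the windows of all genes called lower. Within the list, 3 of 31 windows of tested genes held one (9.7%), and 1 of 15 windows of genes that did not pass (6.7%). Counts this small cannot tie half-sites to a direction of change. None of the 7 windows of 6 genes that rose held a half-site (TP53INP1 has no window in the table), against 5.7% of the windows of all genes called higher, which says only that these letters are not in these windows.

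In aggregates the list moved in both directions. TP53INP1 was 7.98-fold higher in MALC than in suspension, CCNG1 1.94-fold and MDM4 1.89-fold higher, whereas AEN was 2.31-fold, TIGAR 2.08-fold and TRIAP1 1.63-fold lower. Of the 25 tested genes, 7 rose, 8 fell and 10 did not pass (limma, Benjamini-Hochberg adjusted p under 0.05 over all genes). Over all genes tested, 42.7% were called, 19% as higher and 23.7% as lower, and the list's shares were 60%, 28% and 32%. In the fit over probe sets, 14 of the list's 53 were called higher, 10 lower and 29 did not pass. Over all probe sets above the filter, 21.2% were called higher and 20.4% lower, so the list lay nearer to all features there. The groups did not overlap for 17 of the 25 listed genes, 68% of them, against 56.9% of all genes. The median log2 change of the list, −0.06, was the same as that of all genes tested at this rounding, while the median size of the change was 0.33 against 0.19. Changes of at least 2-fold were seen in 3 of the 25 (TP53INP1, AEN and TIGAR), against 3.58% of all genes for called changes of that size (2.78% higher and 0.799% lower), and 9 of the 15 called genes changed by less than 1.5-fold. Folds were taken after adding 16 to each signal, so those of dim genes are understated.

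Arrays numbered 2 and 3 were nearly alike within each group, and array 1 lay apart. On the log2 scale array 1 differed from the mean of arrays 2 and 3 by more than these differed from each other in 18 of the 25 tested genes in MALC and in 18 in suspension. With arrays 2 and 3 of each group averaged to 1 sample, 3 genes of the list were higher (TP53INP1, CCNG1 and MDM4) and 3 lower (AEN, TIGAR and TRIAP1), when 17.1% of all genes were called. These 6 genes were also called under each of the other alternatives in which they were tested, including the fits without any single array. Without array 1 of both groups 9 were higher and 10 lower, when 56.1% of all genes were called.

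**Figure D1:**
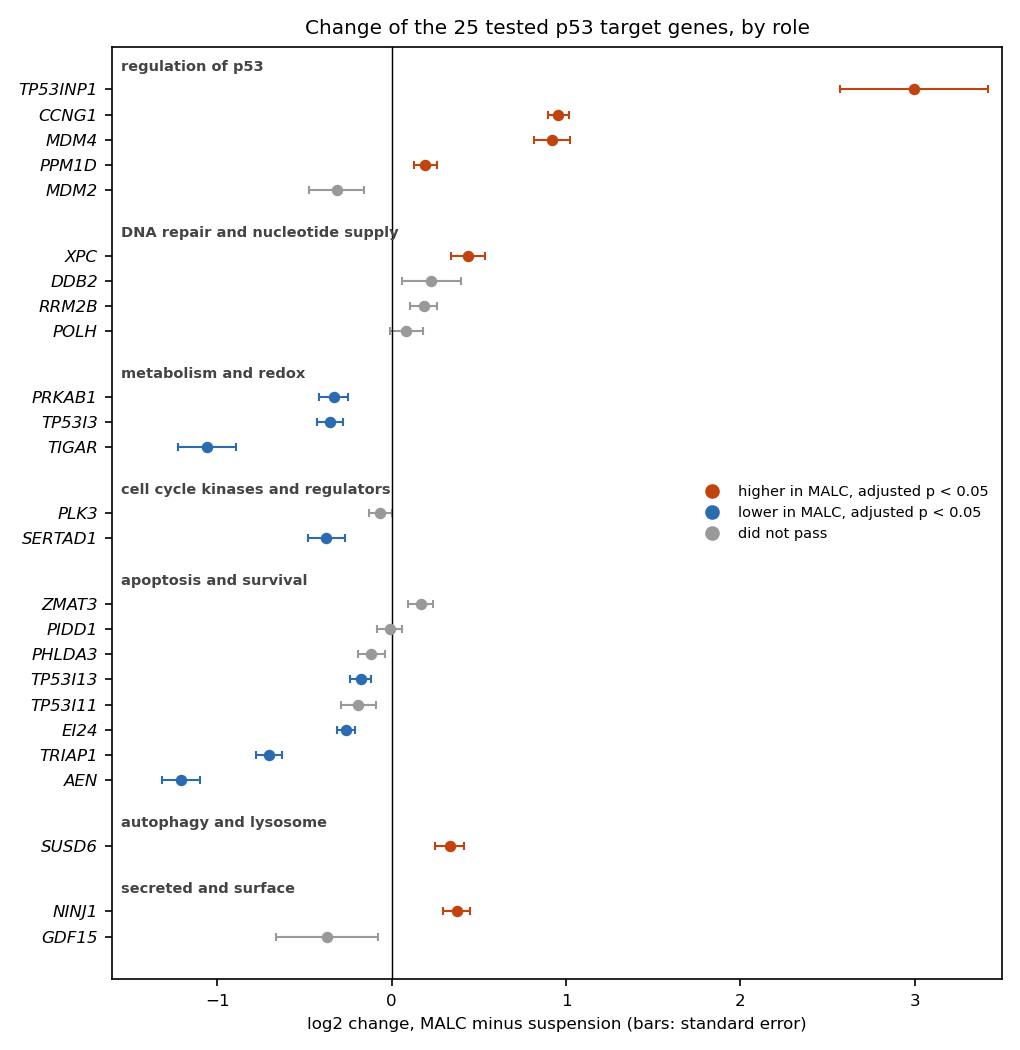
Log2 change, MALC minus suspension, of the 25 tested genes with the standard error of the limma fit, grouped by role; orange marks genes higher, blue genes lower in MALC and grey genes that did not pass. The 5 genes placed as regulators of p53 lie mostly to the right, with TP53INP1 at 3.00, and the metabolic and apoptosis genes mostly at or left of 0.

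Among the 5 genes placed as regulators of p53, 4 rose and MDM2 did not pass, with a median log2 change of 0.92. Over all genes tested, 19% were called higher. The grouping was made with earlier results known, so it is no independent pattern. The separate list of regulators and partners of p53, with 23 tested, had 4 higher and 6 lower and a median of −0.04. TP53INP1, a stress-induced nuclear protein that promotes p53 phosphorylation and acts in autophagy, had signals of 2171, 3594 and 3856 in MALC 1, 2 and 3 and of 176, 527 and 560 in suspension 1, 2 and 3. Every MALC array lay above every suspension array, and array 1 was the lowest of its group in both. The log2 change was 3.00 with a standard error of 0.42 (adjusted p = 0.0014), the third largest in size of all genes tested, and 2.48 without suspension 1. A second, dimmer probe set (244721_at) gave 88.0, 96.0 and 101 in MALC and 84.6, 82.0 and 84.0 in suspension, a log2 change of 0.15 that did not pass in the fit over probe sets (adjusted p = 0.0856). The TP53INP1 rise thus rests on 1 probe set, 225912_at, and the mean of both probe sets gave a log2 change of 1.57.

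CCNG1 encodes cyclin G1, which recruits a phosphatase to MDM2. Its single probe set read 8151, 9177 and 9311 in MALC and 4671, 4506 and 4508 in suspension, so the groups lay far apart for their spread (8879.7 ± 635 against 4562 ± 94.9, SD, n = 3 each; adjusted p = 0.000113). PPM1D, the phosphatase WIP1 that dephosphorylates p53, rose only 1.14-fold, from 428, 426 and 418 in suspension to 468, 503 and 492 in MALC. The PPM1D call (adjusted p = 0.0404) was lost when any array but MALC 1 was left out, with adjusted p up to 0.139, and in the fit over probe sets (0.0522). Its dimmer probe set 230330_at overlapped between the groups, with a log2 change of 0.03 (adjusted p = 0.784). The mean of its probe sets gave 0.11 and was not called (adjusted p = 0.18).

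MDM4 and MDM2, paralogs that both bind and inhibit p53, did not move together. MDM4 had signals of 5232, 5714 and 5999 in MALC and 2524, 3239.7 and 3215 in suspension, with no overlap (log2 change 0.92, standard error 0.11, adjusted p = 0.000699). All 6 MDM4 probe sets were called higher, with log2 changes from 0.33 to 1.19. The brightest MDM2 probe set read 1964, 1917 and 1898 in MALC and 1802, 2726 and 2805 in suspension. Suspension 1 lay below all MALC arrays here and suspension 2 and 3 above them; on the log2 scale suspension 1 minus the mean of suspension 2 and 3 was −0.61. The MDM2 change of −0.31 did not pass (adjusted p = 0.147), and without suspension 1 it was −0.52 and passed (adjusted p = 0.00148). Without suspension 2 it was −0.22 (adjusted p = 0.354) and without suspension 3 it was −0.20 (0.38). Of the 6 MDM2 probe sets above the filter 1 was called lower (225160_x_at, log2 change −0.48, adjusted p = 0.035) and 5 did not pass, with the 6 changes between −0.48 and −0.04. Over all probe sets above the filter 41.7% were called, 21.2% as higher and 20.4% as lower.

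**Figure D2:**
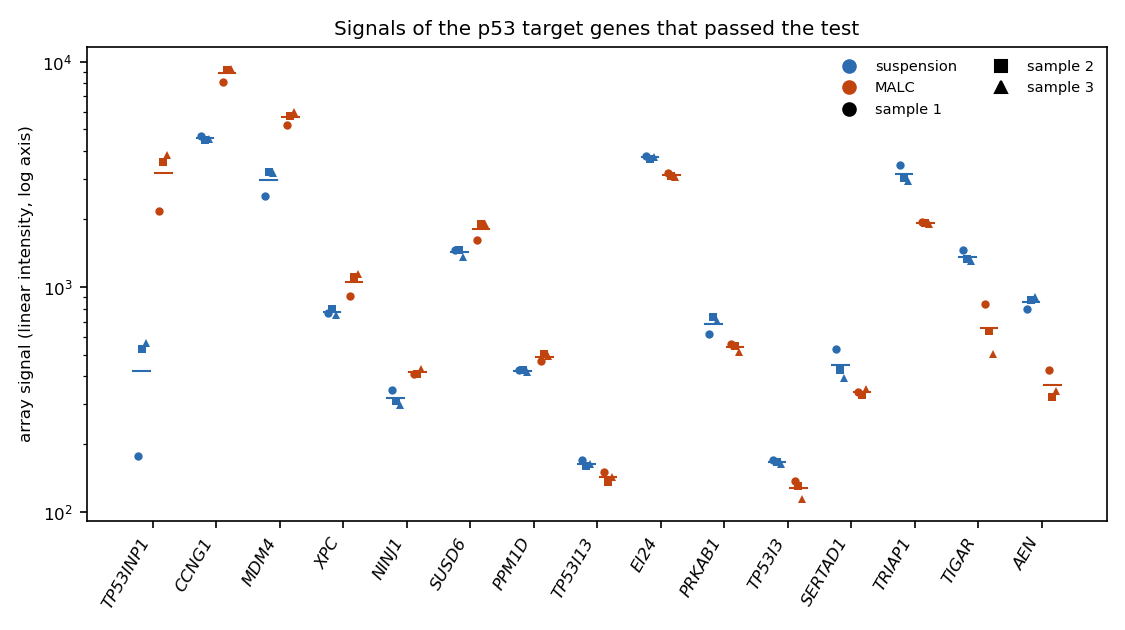
Array signal (linear intensity on a log axis) of the 15 called genes in each of the 6 samples, with suspension in blue and MALC in orange, symbols for the sample number and a line at each group's mean. The groups do not overlap for any of the 15 genes, and in TP53INP1 the circles of sample 1 lie below the other samples of their group; levels of different genes are not comparable.

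Of 4 tested genes of DNA repair and nucleotide supply, 1 rose and 3 did not pass, when 19% of all genes tested were called higher. XPC, which recognises distorted DNA in nucleotide excision repair, had signals of 909, 1103 and 1143 in MALC and 762, 793 and 752 in suspension, a 1.35-fold rise without overlap (adjusted p = 0.0087). DDB2, a protein that recognises ultraviolet lesions, has the window with the full site shown above. It read 491, 339 and 333 in MALC and 391, 302 and 287 in suspension. Its groups overlapped, since array 1 was the highest in both, and the log2 change of 0.23 did not pass (adjusted p = 0.308). A fit that blocked on sample number called DDB2 higher (adjusted p = 0.0327), as did the fit without array 1 of both groups (0.0288), whereas without MALC 1 alone the log2 change was 0.05 (adjusted p = 0.765) and without suspension 1 it was 0.36 (0.141).

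RRM2B, a ribonucleotide reductase subunit, missed the threshold (adjusted p = 0.0878), with 2749.6 ± 126 in MALC, 2423 ± 192 in suspension and no overlap between the groups. POLH, the translesion polymerase eta, had a log2 change of 0.08 in its brightest probe set (adjusted p = 0.5). Of its 6 probe sets above the filter only 231115_at was called, with 229, 263 and 251 in MALC and 141, 150 and 134 in suspension (log2 change 0.74, adjusted p = 0.000512). The other POLH probe sets lay between 0.06 and 0.23 and did not pass, so the probe sets of this gene disagree.

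All 3 tested genes of the metabolic and redox group, which lists 5, fell, when 23.7% of all genes tested were called lower. This small group was also placed with earlier results known. TIGAR, a phosphatase that lowers glycolytic flux, read 841, 634 and 502 in MALC and 1452, 1331 and 1301 in suspension. The lowest suspension array was well above the highest MALC array, and the MALC arrays spread more (659 ± 171 against 1362 ± 80.0; log2 change −1.06, standard error 0.17, adjusted p = 0.00218). TP53I3, a quinone oxidoreductase, fell from 170, 167 and 163 in suspension to 138, 130 and 114 in MALC (adjusted p = 0.00761). PRKAB1, a subunit of the energy sensor AMPK, fell from 619, 737 and 701 to 558, 547 and 515, with adjusted p = 0.0155. Leaving out array 2 or 3 of either group ended the PRKAB1 call, with adjusted p between 0.0507 and 0.0645. The dimmer PRKAB1 probe set 201835_s_at overlapped between the groups and did not pass (log2 change −0.16, adjusted p = 0.253). With the mean of its probe sets PRKAB1 had a log2 change of −0.24 and was not called (adjusted p = 0.0518). STEAP3, a metalloreductase, lay below the filter.

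Of the cell cycle group, SERTAD1, a transcription co-regulator that binds a cyclin-dependent kinase, fell from 526, 426 and 394 in suspension to 340, 332 and 350 in MALC (log2 change −0.37, adjusted p = 0.0249). Suspension 1 was the highest array, and the gene was not called when MALC 2, MALC 3 or suspension 2 was left out (adjusted p = 0.0835, 0.0589 and 0.0508). PLK3, a stress-responsive polo-like kinase, had a log2 change of −0.06 in its brightest probe set and did not pass (adjusted p = 0.467). Its probe set 204958_at, nearly as bright, was called lower, at 99.0, 113 and 110 in MALC against 136, 147 and 139 in suspension (log2 change −0.35, adjusted p = 0.00604). PLK2 lay below the filter.

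Of 8 tested genes of apoptosis and survival, 4 fell, none rose and 4 did not pass. Among all genes tested, 23.7% were called lower and 19% higher. The roles were placed with earlier results known, so this count is no independent pattern. AEN, a nuclease that promotes apoptosis, showed the largest fall of the list, from 796, 877 and 903 in suspension to 426, 324 and 345 in MALC (log2 change −1.21, standard error 0.11, adjusted p = 0.000345). Its log2 change stayed between −1.32 and −1.13 when any single array was left out. TRIAP1, an inhibitor of apoptosis in mitochondria, read 1948, 1927 and 1907 in MALC and 3465, 3027 and 2962 in suspension (adjusted p = 0.000517). The pro-apoptotic AEN and the anti-apoptotic TRIAP1 thus both fell.

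EI24, an endoplasmic reticulum protein of autophagy and cell death, fell 1.20-fold, from 3757 ± 58.4 in suspension to 3130.0 ± 73.3 in MALC (adjusted p = 0.00516). Its second probe set, 208289_s_at, had a log2 change of −0.20 and did not pass (adjusted p = 0.0529). TP53I13 fell from 169, 159 and 163 to 150, 136 and 143, with adjusted p = 0.0485. Leaving out any array but MALC 1 ended the TP53I13 call (adjusted p up to 0.158), as did the fit over probe sets (0.0613).

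The others of this group did not pass in their brightest probe sets. PHLDA3, an inhibitor of AKT, had a log2 change of −0.12 (adjusted p = 0.249), but its dimmer probe set 235534_at was called lower at 80.3, 88.4 and 64.3 against 102, 118 and 114 in suspension (log2 change −0.45, adjusted p = 0.0114). ZMAT3, an RNA-binding zinc finger protein, had 1955, 2129 and 2083 in MALC and 1696, 1877 and 1918 in suspension. These groups did not overlap but were close, and the log2 change of 0.17 passed only with some alternatives, among them blocking on sample number (adjusted p = 0.0465, against 0.0991 without the block) and leaving out MALC 1 (0.0472). Of its 5 probe sets above the filter, 219628_at and 1555609_a_at were called higher, with log2 changes of 0.33 and 0.30. PIDD1, a scaffold for caspase activation, had a log2 change of −0.01 and TP53I11 one of −0.19 (adjusted p = 0.92 and 0.163). PERP, a desmosomal protein, lay below the filter.

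**Figure D3:**
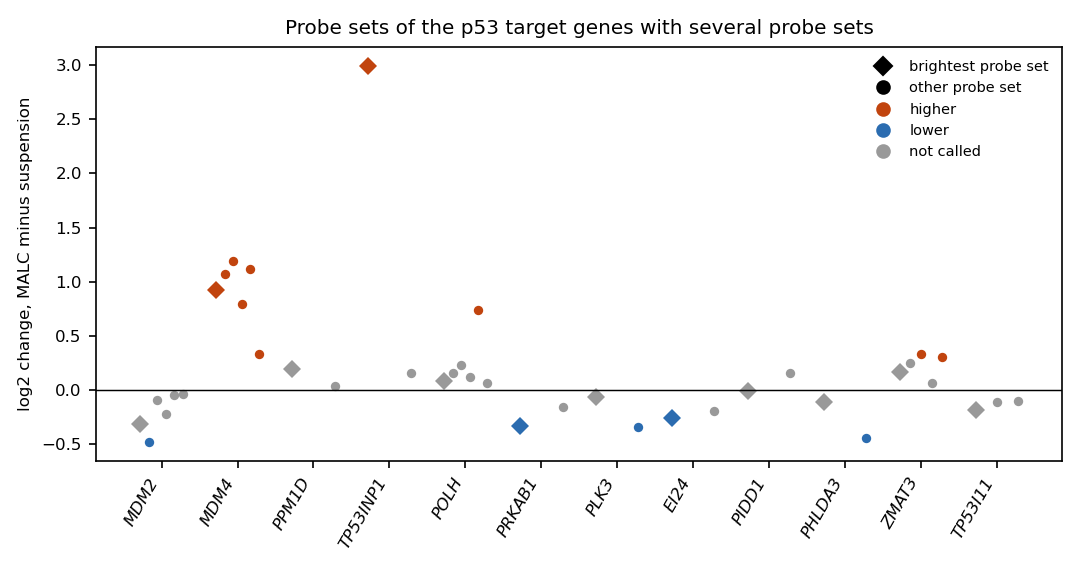
Log2 change, MALC minus suspension, of each probe set above the filter for the 12 genes with several, with a diamond for the brightest, which stands for the gene, and colours from the fit over probe sets (orange higher, blue lower, grey not passed). The 6 MDM4 probe sets all lie above 0 and pass, while the second probe set of TP53INP1 lies near 0 and 1 POLH probe set lies apart from the other 5; PPM1D is grey because it passed only in the fit over genes.

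SUSD6, a membrane protein of the lysosome, rose 1.26-fold, from 1453, 1458 and 1349.7 in suspension to 1608, 1894 and 1893 in MALC (adjusted p = 0.0154). MALC 1 lay nearest to suspension, and SUSD6 was not called when MALC 2, MALC 3 or suspension 3 was left out (adjusted p = 0.0698, 0.0589 and 0.0635). The autophagy gene DRAM1 and SPATA18, which acts in mitochondrial quality control, lay below the filter. NINJ1, a cell adhesion protein that also drives membrane rupture in dying cells, rose from 349, 311 and 299 to 411, 411 and 432 (log2 change 0.37, adjusted p = 0.00646), without overlap. GDF15, a secreted stress hormone, was near the filter, at 75.2, 61.0 and 53.4 in MALC and 56.3, 154 and 69.4 in suspension. Its log2 change of −0.37 did not pass (adjusted p = 0.333) and was 0.0021 without suspension 2. Below the filter, GDF15 probe sets 221576_at and 229868_s_at read 50.2 and 46.8 in suspension 2. In the other suspension arrays they read 49.3 and 38.4, and 41.1 and 43.7, so the high value was seen in 1 probe set. Of the 7 listed fibroblast genes 4 (COL1A2, COL3A1, DCN and LUM) were also at their highest in suspension 2. COL1A2 read 347 and COL3A1 174 there, against 46.0 to 127 and 19.5 to 32.7 in the other arrays. DCN at 130 and LUM at 18.8 lay little above their next highest arrays (120 and 17.4). COL1A1, PDGFRB and THY1 were highest in other suspension arrays. The part of such signal in the GDF15 value was not tested.

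The 5 genes below the filter (STEAP3, PLK2, PERP, DRAM1 and SPATA18) had 11 probe sets with signals between 10.5 and 59.8, around or under the filter's 53.4. Their log2 changes lay between −0.16 and 0.15 and were not tested. No detection calls were used, so these genes were neither shown to be present nor shown to be absent.

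Other known p53 targets, from a list written alongside the main one, also moved both ways. Of 18 listed, 15 were tested, 7 rose, 3 fell and 5 did not pass, when 19% of all genes were called higher and 23.7% lower. Their median log2 change was 0.30, against −0.06 for all genes. TNFRSF10D, a decoy death receptor, had signals of 628, 744 and 814 in MALC and 154, 292 and 282 in suspension (2.96-fold higher, adjusted p = 0.00145). SESN1, a stress-induced inhibitor of mTORC1, rose 1.96-fold, from 169, 169 and 177 to 271, 388 and 410. The pro-apoptotic PMAIP1 rose 1.45-fold and the death receptor gene TNFRSF10B 1.32-fold, while GADD45A, a growth arrest gene, rose 2.75-fold. APAF1, the scaffold of the apoptosome, and the death receptor gene FAS rose 1.24- and 1.25-fold. The APAF1 call ended without MALC 3, suspension 2 or suspension 3 (adjusted p = 0.0671, 0.106 and 0.082) and with the mean of its probe sets (0.0667), while FAS stayed called with each array left out. The mean of the TNFRSF10B probe sets gave a log2 change of 0.22 in place of 0.40, still called. BAX fell from 364, 591 and 552 in suspension to 348, 176 and 238 in MALC, and array 1 of both groups lay close together; its call (adjusted p = 0.0185) ended when array 2 or 3 of either group was left out (0.0589 to 0.0612). SIVA1, a pro-apoptotic adaptor, was 1.90-fold lower. TP53AIP1, also called lower, was dim, with a mean signal of 45.2 in MALC, under the filter's 53.4, and of 64.2 in suspension, so that it passed the filter through suspension alone; its call ended without MALC 2 (adjusted p = 0.0568). CDKN1A, the p21 gene and a classical target, missed the threshold (adjusted p = 0.0598), at 992, 759 and 774 in MALC against 652, 684 and 694 in suspension.

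Of 27 listed regulators and partners of p53, 23 were tested, 4 rose, 6 fell and 13 did not pass, with a median log2 change of −0.04. Over all genes tested, 19% were called higher and 23.7% lower, with a median of −0.06, so this list lay near all genes. ATM, the kinase that activates p53 after double-strand breaks, had signals of 4636, 6305 and 6293 in MALC and 1674, 1894 and 1953 in suspension (3.08-fold higher, adjusted p = 0.000237). CHEK1, a checkpoint kinase of replication stress, fell from 2928, 2456 and 2604 to 1919.8, 1335 and 1197 (1.82-fold lower, adjusted p = 0.00507). ATR, which activates CHEK1, did not pass, with a log2 change of −0.19 (adjusted p = 0.0543), and was called lower in 7 of the 19 alternatives, the block on sample number among them (0.0484). DAXX, a partner of MDM2, was 1.39-fold lower and PPP2R5C, a phosphatase subunit, 1.37-fold higher. With the mean of a gene's probe sets the log2 change of CHEK1 was −0.50 in place of −0.86, and that of PPP2R5C 0.76 in place of 0.45, both still called. RPL11, a ribosomal protein that can bind MDM2, rose 1.10-fold, and did not pass with eBayes without trend (adjusted p = 0.0659). The acetyltransferase gene CREBBP rose 1.22-fold, but did not pass once MALC 2, MALC 3 or suspension 2 was left out (adjusted p = 0.0683, 0.0651 and 0.0702); the mean of its probe sets gave a log2 change of 0.07 (0.344). Falls in the ubiquitin pathway genes USP7, which removes ubiquitin from MDM2 and p53, TRIM24 and COP1, both ligases for p53, were 1.23-, 1.21- and 1.18-fold. Leaving out any array but MALC 1 ended the USP7 call (adjusted p up to 0.13), and TRIM24 and COP1 were no longer called when array 2 or 3 of either group was left out (up to 0.0688 and 0.101). Without probe sets ending in _s_at or _x_at, USP7, TRIM24 and COP1 had log2 changes of −0.18, −0.09 and −0.08 and were not called (adjusted p = 0.053, 0.282 and 0.292), and USP7 was not called with quantile normalization (0.0548). TP73, a p53 relative, had a dim signal of 85.2 ± 4.01 in MALC and 103 ± 2.76 in suspension and was called lower (adjusted p = 0.0129), though not without MALC 3 (0.0505).

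**Figure D4:**
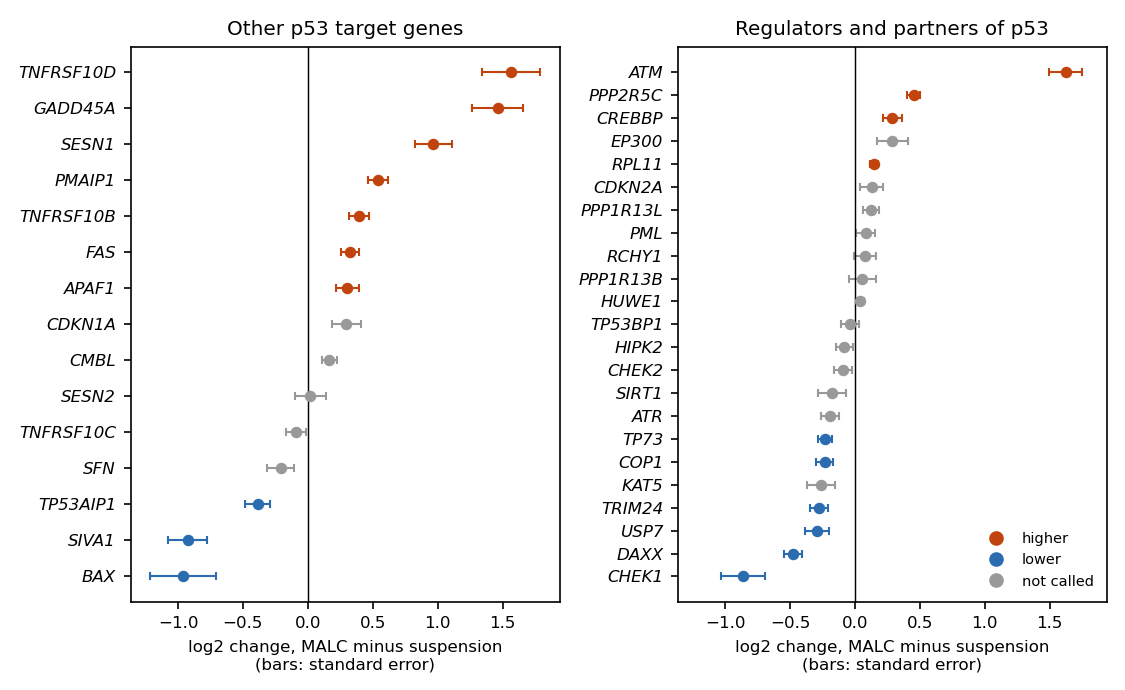
Log2 change, MALC minus suspension, with the standard error of the limma fit, for 15 other p53 targets (left) and 23 regulators and partners of p53 (right); orange marks higher, blue lower in MALC and grey genes that did not pass. TNFRSF10D and GADD45A on the left and ATM on the right lie farthest to the right, and BAX, SIVA1 and CHEK1 farthest to the left.

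Signal medians were 80.7 to 81.7 in the 6 arrays. Defining B cell genes were bright in both groups, with 7 of 8 listed genes measured, all 7 above the filter, and their signals summed to 42846 to 50999 in MALC against 43049 to 50218 in suspension. The T and NK cell, monocyte, and epithelial and endothelial lists had summed signals of 335 to 579 in all arrays. Fibroblast genes summed to 1276 to 1448 in MALC against 1906 to 2277 in suspension, mostly from THY1, with LUM and COL3A1 near the lowest signals in all arrays except COL3A1 in suspension 2. For the ACTB control probe sets, a sign of RNA integrity, the ratio of 3′ to 5′ signal spanned 1.22 to 1.33 in MALC against 1.31 to 1.54 in suspension. For GAPDH it was 1.01 to 1.02 against 1.04 to 1.06, so the groups did not overlap there, and its part in the changes was not tested.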

How the data were processed

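The authors deposited a linear intensity for each of 54675 probe sets on each of 6 arrays. Per the submitters' processing notes MAS5 was used; its version, its settings and the scaling are not given in the sources used here. A common scaling of the arrays by the authors would hide any shift shared by all transcripts. Per the labels, 200 ng of total RNA were amplified and labelled for each array.

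Signals were set to log2(signal + 16). Left out were 62 control probe sets and those with a mean under the 40th percentile (signal 53.4). Control probe sets aside, 41091 had 1 gene symbol, 1801 several and 11721 none; symbols were updated with RefSeq gene names (GRCh38.p14), and 41037 matched. Each gene was its brightest probe set. The test was limma 3.58.1 under R 4.3.3, with group as the sole term (lmFit, eBayes with trend, two-sided), with Benjamini-Hochberg adjustment over 13765 genes or, for single probe sets, over 32768. The fit was checked on simulated data. All 30 genes with probe sets are named; of the 2 other lists, the called genes with the 5 largest changes each way and, chosen after their values were seen, APAF1, FAS, CDKN1A, ATR and TP73 are named. The fibroblast genes set beside GDF15 were singled out in the same way. Genes, lists and roles were chosen with earlier results of these data known. Promoter windows came from RefSeq; the array values carry no coordinates.

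Sample numbers are shared by the groups. For numbers 1, 2 and 3 the samples' deviations from their group mean had correlations of 0.275, 0.177 and 0.194, so every pair met the criterion of exceeding 0.1. MALC 2 with suspension 3 (0.15) and MALC 3 with suspension 2 (0.196) were as alike, so numbers 2 and 3 were not told apart. A group's deviations cancel out, so a departure of array 1 shared by both groups also raises the values among 2 and 3. The criterion therefore cannot show that those numbers pair the samples. The number entered as a block in an alternative. Pearson correlations were 0.9949 to 0.9985 within groups and 0.9768 to 0.9888 between them. In all, 19 alternatives were tried.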

Additional observations from a re-analysis of the deposited data

How the results depend on the processing

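The number of arrays limits the precision, and dim probe sets were not shown to lie above background. Of the 15 called genes of the main list, 6 stayed called under all alternatives in which they were tested and 10 with each array left out in turn. Over the 25 tested genes, 407 of 467 values under an alternative kept direction and side of the threshold, 35 lost the call, 18 gained one and 7 changed sign, all of these in genes that did not pass. The changes of sign were in PIDD1 (0.0618 with array weights, 0.0721 with the mean of probe sets, 0.0722 without array 1 of both groups, and −0.0398 to 0.0379 with single arrays left out), POLH (−0.0068 to 0.1373 with single arrays left out, below 0 without MALC 1) and GDF15 (−0.6167 to 0.0021, above 0 without suspension 2).

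Leaving out single arrays, genes of the main list called higher numbered 5 to 8 and lower 5 to 8, when 29.1% to 47.2% of all genes were called. Their probe sets numbered 10 to 15 and 7 to 14, other p53 targets 6 to 8 and 1 to 3, and regulators and partners 3 to 4 and 2 to 7. With samples 2 and 3 averaged the main list had 3 higher and 3 lower, its probe sets 8 and 4, other targets 4 higher, and regulators 2 and 1. Of all genes 17.1% were called there, and only 2 samples a group remain. Without probe sets ending in _s_at or _x_at 4 genes (of 20 left) and 6 probe sets of the main list fell, and of other targets 4 rose and 1 fell (of 8 left), when 40.2% of all genes were called. With array weights 8 regulators rose and 10 fell, and 17 probe sets of the main list fell, when 64.5% of all genes were called. Without array 1 of both groups 10 regulators and 16 probe sets fell, when 56.1% of all genes were called. Causes were not tested beyond the smaller numbers given. With the replicate block the main list had 9 higher and 8 lower, gaining DDB2 and ZMAT3, when 46.5% of all genes were called against 42.7% without it; of the other named genes the block changed only the call of ATR. Other pseudocounts, filters, quantile normalization, median centring and eBayes without trend kept all 8 of these counts within 1.5 times. The mean of probe sets has no value for counts of probe sets.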
